A study of Mus musculus with 12 samples.

Results

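The comparison described here sets all colon libraries from mice on a high-fat diet (HFD) against all colon libraries from mice on the diet labelled CD, whatever their DSS status. It takes in all 12 samples of the series, 6 in each diet, and 14179 of the 54532 genes of the deposited table, those at an FPKM of 1 or more in at least 3 of the 12 libraries. FPKM counts fragments per kilobase of gene relative to library depth, so a level is already divided by gene length. The 6 HFD libraries are 3 from mice on HFD alone and 3 from mice on HFD with 2% DSS (HFD+DSS), and the 6 CD libraries are 3 on CD alone and 3 on CD with 2% DSS (CD+DSS). Dextran sulfate sodium (DSS) is a polymer that damages the lining of the colon and causes colitis in mice. All samples are wild-type C57BL/6J, so no allele separates the groups. The labels leave CD unexpanded. The fat content of the diets, the weeks of feeding, the days of DSS, and the sex, age and caging of the mice do not appear in the labels. No label says that the samples of a group are separate animals, so the p-values below speak of the spread between these libraries, which may be technical in part.

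A diet rich in fat brings more long-chain fatty acids and more bile acids to the gut. Fatty acids bind the nuclear receptors of the PPAR family, which switch on genes for fatty acid uptake, oxidation and ketone production, while bile acids bind the receptor FXR, which controls their own uptake, carriage and export. The colon also holds goblet cells that secrete mucus, absorptive colonocytes, muscle, nerves and fat attached to its outer wall, and a library of whole tissue measures all of them together.

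The libraries held 14657800 to 17932300 fragments on genes and 21814 to 23236 genes above 0. Markers of the labelled tissue were abundant, with a summed colonocyte level over 18 genes of 14150 to 28940 FPKM in the 6 HFD libraries and 17170 to 35140 FPKM in the 6 CD libraries. Posterior Hox genes, which mark the anal end of the gut, differed widely between libraries of 1 group, from a mean log2(FPKM + 1) of 1.23 to 4.57 in the 6 HFD libraries and of 0.47 to 5.11 in the 6 CD libraries. That level averaged 3.04 ± 1.40 in HFD and 2.80 ± 1.69 in CD (SD, n = 6 each), a difference within the spread by an exact permutation test of diet within DSS status (two-sided p = 0.795, with 0.005 the smallest that the 400 arrangements allow). That pooled test averages differences of opposite sign. Without DSS the level was 1.23, 1.37 and 3.53 in HFD and 3.63, 5.11 and 3.13 in CD. With DSS it was 3.799, 3.74 and 4.57 in HFD+DSS and 3.26, 0.47 and 1.21 in CD+DSS, without overlap. HFD+DSS replicate 3 stood at one end of the first principal component (26% of the variance) and of the third (13.1%). HFD+DSS replicate 1 stood at one end of the second (17.5%).

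No gene passed the test for diet. With DSS as a covariate, 0 of 14179 genes (0%) had a limma adjusted p under 0.05, and the smallest limma adjusted p was 0.394. At an unadjusted limma p under 0.05 there were 683 genes (4.82%), where 709 would be reached if no gene differed. Of these, 256 (1.81%) had a higher level in HFD and 427 (3.01%) a lower one. The same limma fit called 455 genes (3.21%) for DSS, of which 298 rose and 157 fell with DSS. Diet took 7.57% of the summed squares over genes on 1 degree of freedom, DSS 21.8%, their interaction 10.0% and the residual 60.6% on 8. The median difference between the diets was -0.02 on the log2 scale and 6247 genes (44.1%) were above 0, which is the background for the counts of list members above 0. Both without and with DSS, 2964 genes (20.9%) were above 0 and 4198 (29.6%) below it. Many list medians and some single differences depend on 1 library. A range beside one gives the lowest and highest values with 1 library left out. Others carry only some of these values or none, which does not mean that they are stable.

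**Figure D1:**
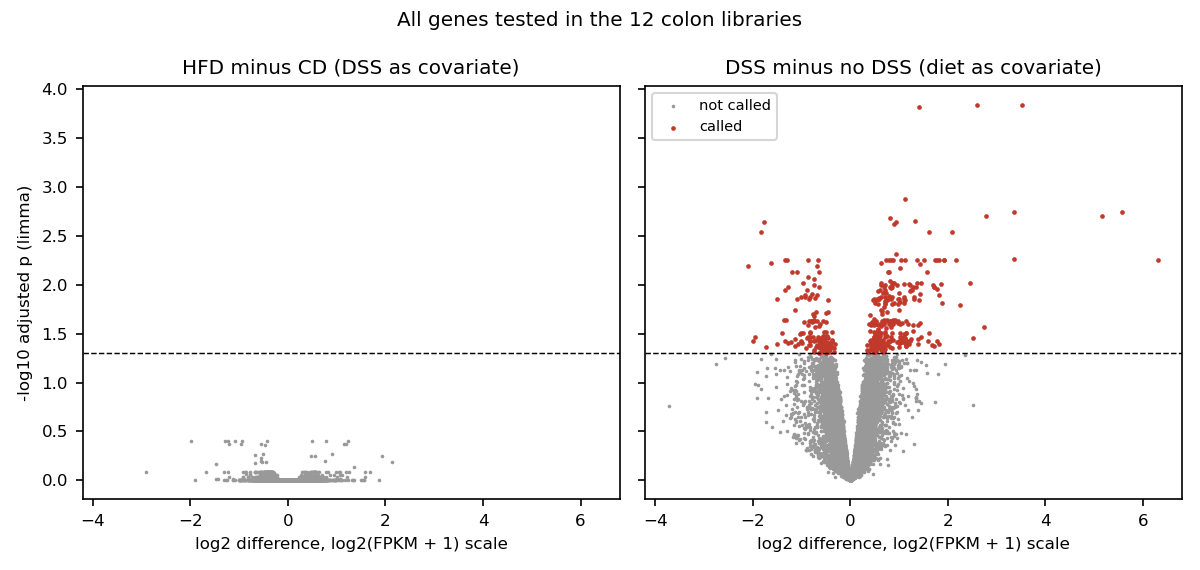
Each dot is 1 of the 14179 genes, with its log2 difference on the x axis and the -log10 of its limma adjusted p on the y axis, for diet on the left and for DSS in the same fit on the right. No dot of the diet panel reaches the dashed line at an adjusted p of 0.05, whereas 455 red dots lie above it in the DSS panel.

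Every diet difference below is therefore one that did not pass the test, given with its error so that its size can be read. Each is HFD minus CD on the log2(FPKM + 1) scale from that fit, with its standard error (SE), and on this scale differences of genes with few FPKM come out smaller than their ratio. The 6 libraries of one diet did not overlap with the 6 of the other in 27 genes (0.19%), with all HFD libraries above all CD libraries in 7 (0.0494%) and below them in 20 (0.141%). The 7 were Enpep, Ppm1l, Agtr1a, Klhl13, Slc7a8, Arxes2 and Prox1. Klhl13 and Arxes2 are named for this separation alone, after their values were seen, and so are Eif2ak3 and Creb3l1 further down.

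The smallest p of all belonged to Enpep (chromosome 3, 129269175 to 129332720), which encodes glutamyl aminopeptidase, the membrane enzyme that trims angiotensin II. Its lowest, median and highest levels were 5.93, 7.66 and 9.52 FPKM in the 6 HFD libraries, against 3.26, 3.74 and 5.40 FPKM in the 6 CD libraries. The diets did not overlap, so all HFD libraries were necessarily also above the CD libraries of the same DSS status. The difference was 0.79 ± 0.13 (SE; 95% interval 0.50 to 1.07; unadjusted p = 5.97e-05; limma adjusted p = 0.394).

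Agtr1a (chromosome 13, 30336441 to 30382867), the type 1 receptor of the same hormone, stood at 1.77, 2.51 and 5.36 FPKM (lowest, median and highest) in HFD and at 0.581, 1.01 and 1.497 FPKM in CD. Here too all HFD libraries lay above all CD libraries, with HFD+DSS replicate 3 the highest. The difference was 0.90 ± 0.20 (SE; limma adjusted p = 0.540), and 0.74 without that library.

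Genes for a pair of amino acid transporters were also among the 12 smallest p above 0. Slc7a9 (chromosome 7, 35448796 to 35466036) encodes the light chain of the transporter for cystine and dibasic amino acids. Its lowest, median and highest levels were 1.97, 5.24 and 12.3 FPKM in the HFD libraries and 0.381, 1.52 and 3.99 FPKM in the CD libraries, with a difference of 1.19 ± 0.24 (SE; limma adjusted p = 0.425). The ranges overlapped between the pooled diets, but within each DSS status all 3 HFD libraries were above all 3 CD libraries. Slc7a8 (chromosome 14, 54722209 to 54781946), the light chain of a transporter for neutral amino acids, had 2.76 to 5.19 FPKM in HFD and 1.53 to 2.39 FPKM in CD, without overlap (0.55 ± 0.12).

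Over the 20 tested genes for amino acid and one-carbon metabolism there was no common direction. Of them 10 were above 0 and 10 below, 0 passed, and the median was 0.00 against -0.02 over all genes (range -0.0351 with CD+DSS replicate 2 left out to 0.0250 with HFD+DSS replicate 2 left out). The lowest was Cbs, the enzyme that joins homocysteine to serine, at 3.67 to 18.4 FPKM in HFD and 12.2 to 22.1 FPKM in CD (-0.73 ± 0.26).

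Other genes above 0 had smaller differences. Ppm1l (chromosome 3, 69316861 to 69560802), a magnesium-dependent protein phosphatase, had 3.56 to 4.96 FPKM in HFD and 2.15 to 3.16 FPKM in CD, without overlap (0.50 ± 0.09; limma adjusted p = 0.394). Prox1, the transcription factor of lymphatic endothelium, had 0.938 to 1.47 FPKM in HFD and 0.523 to 0.908 FPKM in CD, without overlap (0.35 ± 0.11). Levels of this gene were low in both diets, and the 14 tested genes of endothelium and lymphatics, of which it had the highest difference, had 5 members above 0 and a median of -0.01 (range -0.14 with CD+DSS replicate 2 left out to 0.0796 with CD+DSS replicate 1 left out). Klhl13, an adaptor of a ubiquitin ligase, had 1.36 to 2.29 FPKM in HFD and 0.784 to 1.30 FPKM in CD (0.47 ± 0.11). Arxes2, a gene first described in fat cells, had 0.962 to 2.09 FPKM in HFD and 0.700 to 0.870 FPKM in CD (0.50 ± 0.13).

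**Figure D2:**
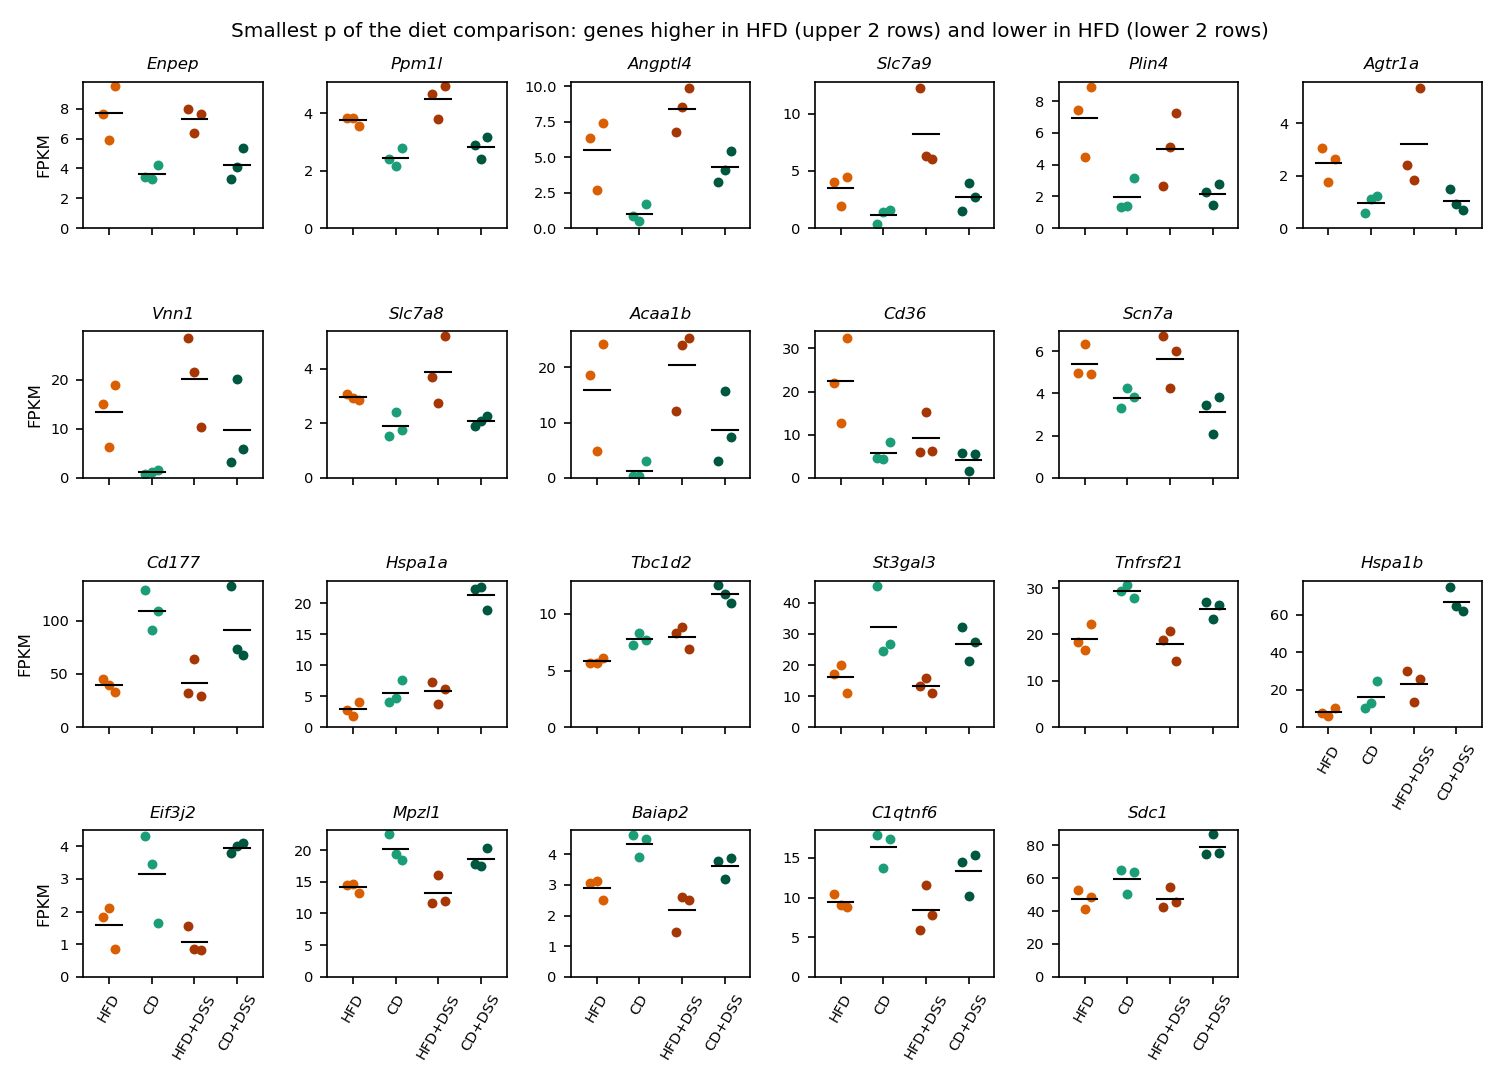
FPKM of each library (dots) and the mean of each group of 3 (bars) for genes among the 12 smallest p above 0 (upper rows) and among the 12 smallest p below 0 (lower rows), in HFD, CD, HFD+DSS and CD+DSS from left to right. In Enpep all 6 HFD libraries, at 5.93 FPKM or more, lie above all 6 CD libraries, at 5.40 FPKM or less, and Hspa1a is highest in the 3 CD+DSS libraries. No gene shown passed the test.

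Genes of fatty acid oxidation and other PPAR targets mostly had positive differences, which were larger in the mice without DSS. Of 34 tested members 0 passed, 29 were above 0 and 5 below, with a median difference of 0.22 against -0.02 over all genes. The median was 0.43 without DSS and -0.02 with it, and 15 members (44.1%) were above 0 in both, as were 20.9% of all genes. The pooled median was 0.15 without HFD replicate 3 and 0.34 without CD+DSS replicate 2. The 5 members at an unadjusted limma p under 0.05 (256 of all genes, 1.81%, were so and higher) were Angptl4, Vnn1, Acaa1b, Acot2 and Acot1, all above 0. This list and the others were chosen with earlier results of these libraries known, and no list was tested as a set.

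Angptl4 (chromosome 17, 33773750 to 33781830), a secreted inhibitor of lipoprotein lipase and a classical PPAR target, was at 6.36, 2.67 and 7.44 FPKM in HFD, against 0.839, 0.523 and 1.68 FPKM in CD, both without DSS. With DSS the levels were 6.74, 8.51 and 9.87 FPKM in HFD+DSS, against 3.27, 4.10 and 5.45 FPKM in CD+DSS. Within each DSS status the diets did not overlap, but the pooled ranges did, since all CD+DSS libraries lay above HFD replicate 2. The difference was 1.24 ± 0.24 (SE; 95% interval 0.72 to 1.76; limma adjusted p = 0.394).

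Vnn1 (chromosome 10, 23894688 to 23905343), which splits pantetheine into vitamin B5 and cysteamine, had 6.26, 16.9 and 28.5 FPKM as lowest, median and highest in the HFD libraries and 0.670, 2.46 and 20.1 FPKM in the CD libraries. The highest CD value came from CD+DSS replicate 2, and the diets did not overlap without DSS. Its difference was 1.93 ± 0.44 (SE; limma adjusted p = 0.558).

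Acaa1b (chromosome 9, 119148023 to 119157093), a peroxisomal thiolase with a near-identical paralog, had 4.82, 21.3 and 25.3 FPKM in HFD and 0.227, 2.98 and 15.7 FPKM in CD. At 2.14 ± 0.51 it had the largest positive difference of the genes tested (limma adjusted p = 0.647), again without overlap only in the mice without DSS. Its reads may be shared with the paralog, so its level is uncertain, and the same holds for Acot1 and Acot2, a pair of acyl-CoA thioesterases. Acot2 had 2.81 to 5.65 FPKM in HFD and 1.93 to 4.72 FPKM in CD (0.53 ± 0.15), and Acot1 had 1.35 to 3.01 FPKM in HFD and 1.18 to 1.91 FPKM in CD (0.33 ± 0.12).

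Cpt1a and Pdk4, which act at control points of fuel use, differed by less relative to their error. Cpt1a, which brings long-chain fatty acids into mitochondria as carnitine esters, had 59.4, 83.6 and 107 FPKM in HFD and 61.7, 70.6 and 106 FPKM in CD (0.14 ± 0.18; 0.0556 without HFD replicate 3 and 0.26 without HFD+DSS replicate 3). Pdk4, the kinase that shuts off pyruvate oxidation, had a difference of 0.78 ± 0.39, with 1.62 without DSS and -0.06 with DSS. Both overlapped between the pooled diets, and in both the HFD libraries lay above the CD libraries without DSS. Of 9 tested ketone body genes 8 were below 0 (median -0.10, and -0.19 without HFD replicate 3), with the monocarboxylate carrier genes Slc5a8 (-0.58 ± 0.26) and Slc16a3 (-0.56 ± 0.21) the lowest.

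Genes that take up and store fat had some of the largest differences. Cd36 (chromosome 5, 17781690 to 17888801), the fatty acid translocase of fat, muscle, vessels and gut, had 5.97, 13.96 and 32.5 FPKM in HFD and 1.44, 5.05 and 8.37 FPKM in CD. The HFD libraries were above the CD libraries within each DSS status and overlapped when pooled. The difference was 1.36 ± 0.34 (SE; limma adjusted p = 0.725). Plin4 (chromosome 17, 56100591 to 56109803), a coat protein of lipid droplets, had 2.67, 6.19 and 8.87 FPKM in HFD and 1.32, 1.87 and 3.14 FPKM in CD (1.16 ± 0.24; limma adjusted p = 0.425).

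Both are also markers of fat cells, and that list had the highest median of all. Of 14 tested adipocyte markers 0 passed and 13 were above 0. Of the 14, 7 (50%) had an unadjusted limma p under 0.05 and were higher in HFD, as were 256 of all genes (1.81%). The list median was 1.04, with 1.61 without DSS and 0.30 with DSS. That median was 0.68 without CD replicate 2 and 1.25 without HFD+DSS replicate 1. The summed level of the 16 markers had a lowest, median and highest of 107, 242 and 485 FPKM in the HFD libraries and 75.4, 169 and 234 FPKM in the CD libraries. The ranges overlapped, and 0 of the markers were at 0 in all libraries. Adipoq, which encodes the fat cell hormone adiponectin, had 0.997 to 33.6 FPKM in HFD and 0.276 to 11.6 FPKM in CD (1.34 ± 0.72, and 0.87 without CD replicate 2). Fabp4, the fatty acid carrier of fat cells, had 7.49 to 26.9 FPKM in HFD and 2.21 to 11.0 FPKM in CD (1.20 ± 0.37). In such whole tissue, more cells of a type and more RNA per cell cannot be told apart. The part of fat tissue in the differences of Cd36, Plin4 and the PPAR targets was not tested.

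Other steps of lipid transport were mixed. Of 23 tested genes 14 were above 0 and 9 below, the median was 0.02 (range -0.0433 with CD replicate 2 left out to 0.12 with CD+DSS replicate 2 left out), and 0 passed. Mttp, which loads lipid onto lipoproteins, had 0.466 to 2.21 FPKM in HFD and 0.358 to 1.65 FPKM in CD (0.45 ± 0.17). Apob, the protein of those particles, had 4.08 to 27.4 FPKM in HFD and 5.32 to 11.5 FPKM in CD (0.83 ± 0.36), and Mgll, which splits the last fatty acid from a stored lipid, had 18.1 to 35.2 FPKM in HFD and 12.4 to 31.7 FPKM in CD (0.57 ± 0.23). Each of the 3 overlapped between the diets. Cholesterol genes lay near 0, with 6 of 22 above 0, a median of -0.04 (range -0.10 with CD replicate 3 left out to 0.0213 with HFD replicate 2 left out) and the lowest value in Dhcr7, the last enzyme of the pathway (-0.29 ± 0.14).

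The bile acid transport chain of the intestine had positive differences that overlapped between the diets. Of 12 tested bile acid genes 9 were above 0 and 0 passed. Of the 12, 4 (33.3%) had an unadjusted limma p under 0.05, all higher in HFD, as were 256 of all genes (1.81%). The median of the 12 was 0.31, with 0.22 without CD+DSS replicate 3 and 0.47 without CD+DSS replicate 2. Slc10a2, the transporter that takes bile acids in, had 9.69, 25.02 and 44.3 FPKM in HFD and 0.881, 8.71 and 22.6 FPKM in CD (1.49 ± 0.60). Fabp6 (chromosome 11, 43596049 to 43601540), which carries them through the cell, had 4.73, 20.3 and 32.4 FPKM in HFD and 0.751, 4.03 and 10.7 FPKM in CD (1.68 ± 0.46; limma adjusted p = 0.824).

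For Fabp6, HFD lay above CD in every library within both DSS states, by a narrow margin with DSS, which was not so for the other members named here. The export subunits Slc51a and Slc51b had differences of 1.52 ± 0.63 and 0.74 ± 0.33. For Slc51a the difference was 2.71 without DSS and 0.34 with DSS, where CD+DSS replicate 2, the CD library with the lowest posterior Hox level, held 49.4 FPKM. Nr1h4, the bile acid receptor FXR itself, had 45.3, 58.7 and 69.9 FPKM in HFD and 26.4, 48.4 and 110.4 FPKM in CD (0.28 ± 0.24; 0.16 with CD replicate 1 left out and 0.49 with CD+DSS replicate 2 left out). With the posterior Hox level as a covariate the differences were 1.58 for Slc10a2, 1.67 for Fabp6 and 1.63 for Slc51a, and that fit also called 0 genes for diet. The posterior Hox level averaged 3.04 in HFD and 2.80 in CD, so this covariate can change a pooled difference little. The part of position in these differences was not tested.

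Of 26 tested genes of xenobiotic metabolism 18 were above 0 and 8 below, and 0 passed. The median was 0.11, with 0.56 without DSS and -0.27 with DSS, and a range of 0.0528 with CD+DSS replicate 3 left out to 0.32 with HFD+DSS replicate 3 left out. Cyp4b1, a cytochrome P450 that acts on fatty acids and foreign compounds, had 4.69, 7.79 and 34.4 FPKM in HFD and 1.02, 2.80 and 6.01 FPKM in CD (1.58 ± 0.48). Cyp2c66, a member of a large P450 family whose reads may be split between paralogs, had 1.54 to 5.67 FPKM in HFD and 0 to 8.07 FPKM in CD (1.11 ± 0.37).

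Among glutathione and NRF2 target genes 14 of 19 were below 0 (median -0.08, range -0.19 with HFD+DSS replicate 1 left out to -0.00998 with HFD+DSS replicate 3 left out), and the lowest were glutathione transferases of families with close copies. Gsta3 had 1.06 to 2.57 FPKM in HFD and 2.44 to 4.56 FPKM in CD (-0.67 ± 0.16). Gstm1 had 34.9 to 82.7 FPKM in HFD and 86.5 to 107 FPKM in CD, without overlap (-0.55 ± 0.18), and Gstm3 had 9.15 to 23.3 FPKM in HFD and 18.9 to 31.4 FPKM in CD (-0.56 ± 0.22).

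Below 0, with predicted genes and receptor segments left out and a mean of 2 FPKM or more required, as for all genes named by their p here, the smallest p belonged to Cd177 (chromosome 7, 24743983 to 24760311), a membrane-anchored surface protein best known from neutrophils. It had 29.2, 36.4 and 64.3 FPKM as lowest, median and highest in the 6 HFD libraries, against 67.5, 99.8 and 132 FPKM in the 6 CD libraries. All HFD libraries lay below all CD libraries, with HFD+DSS replicate 2 and CD+DSS replicate 3 the closest pair. The difference was -1.29 ± 0.22 (SE; 95% interval -1.77 to -0.80; limma adjusted p = 0.394). The alternatives gave Cd177 limma adjusted p values of 0.0865 to 0.830, with the lowest of them, also the lowest of any gene for diet in any alternative, when HFD+DSS replicate 2 was left out.

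S100a8 and S100a9, calcium-binding proteins abundant in neutrophils, had lower levels than Cd177 and the opposite sign. S100a8 had 0 to 22.3 FPKM in HFD and 0 to 8.50 FPKM in CD (0.65 ± 0.53), and S100a9 had 0.375 to 15.95 FPKM in HFD and 0 to 16.6 FPKM in CD (0.38 ± 0.39). Without HFD+DSS replicate 1, the highest HFD library for both, the differences were 0.19 for S100a8 and 0.15 for S100a9. Of 5 tested neutrophil genes 2 were above 0 and 3 below. The summed level of the 12 genes on that list, Cd177 included, was 43.3 to 628 FPKM in HFD and 113 to 257 FPKM in CD.

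Hspa1a and Hspa1b, which encode the stress-induced heat shock protein and lie close together on chromosome 17, both had large negative differences. Their promoters are shown because the genes had the same pattern over the libraries and because reads of such near-identical copies cannot be assigned to one of them with certainty. The windows are the 250 bases before the RefSeq gene start on GRCm38.p6, on the minus strand, at chr17:34972157-34972406 for Hspa1a and chr17:34959239-34959488 for Hspa1b. Capitals mark a match to GAANNTTC, a core of the element bound by heat shock factor.
Hspa1a: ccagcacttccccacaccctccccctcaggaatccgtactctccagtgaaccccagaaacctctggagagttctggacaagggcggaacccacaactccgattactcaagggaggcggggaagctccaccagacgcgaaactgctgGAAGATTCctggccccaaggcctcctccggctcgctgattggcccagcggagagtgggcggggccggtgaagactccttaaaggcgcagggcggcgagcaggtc
Hspa1b: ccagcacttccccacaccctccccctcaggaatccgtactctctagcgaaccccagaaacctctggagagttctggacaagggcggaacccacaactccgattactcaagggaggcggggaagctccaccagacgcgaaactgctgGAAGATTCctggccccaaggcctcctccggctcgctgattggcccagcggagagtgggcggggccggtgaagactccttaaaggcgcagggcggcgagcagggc
The windows share 247 of 250 bases (98.8%). GAANNTTC and TTCNNGAA were searched, each of which reads the same on both strands, and matches of the 2 can overlap. Both windows held 1 match, to GAANNTTC and starting at base 147, and 14.5% of 27025 gene promoters of that length hold at least 1 match to either. Neither window held a run of 3 alternating GAA and TTC units, which 0.51% of those gene promoters hold.

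Hspa1a (chromosome 17, 34969190 to 34972156) was at 2.84, 1.89 and 4.09 FPKM in HFD, against 4.10, 4.72 and 7.70 FPKM in CD, both without DSS. With DSS it was at 7.29, 3.81 and 6.23 FPKM in HFD+DSS, against 22.4, 22.6 and 18.9 FPKM in CD+DSS. The 3 CD+DSS libraries stood far above all others, and HFD libraries were below CD libraries within each DSS status. The pooled difference was -1.24 ± 0.23 (SE; limma adjusted p = 0.394), with -0.72 without DSS and -1.75 with DSS.

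Hspa1b (chromosome 17, 34956436 to 34959238) gave 7.62, 5.97 and 10.4 FPKM in HFD and 10.4, 12.96 and 24.5 FPKM in CD without DSS. With DSS it gave 30.1, 13.5 and 25.5 FPKM in HFD+DSS and 74.6, 64.6 and 61.7 FPKM in CD+DSS, for a pooled difference of -1.21 ± 0.25 (SE; limma adjusted p = 0.425). Without DSS the highest HFD library and the lowest CD library were almost equal, and with DSS the diets lay far apart. Other heat shock genes differed by much less. Of 15 tested members 6 were above 0 and 9 below with a median of -0.05 (range -0.14 with HFD+DSS replicate 3 left out to -0.00472 with HFD+DSS replicate 2 left out), and the constitutive relative Hspa8 had 353 to 743 FPKM in HFD and 286 to 709.7 FPKM in CD (-0.17 ± 0.19; -0.0514 without HFD+DSS replicate 2 and -0.30 without CD replicate 1).

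St3gal3 (chromosome 4, 117932154 to 118134914), which caps sugar chains with sialic acid, had 11.0, 14.6 and 20.1 FPKM in HFD and 21.3, 27.0 and 45.4 FPKM in CD. The diets did not overlap, and the difference of -0.94 ± 0.19 (SE; limma adjusted p = 0.394) was -0.95 without DSS and -0.94 with DSS. A related enzyme, St6galnac6, had 81.2 to 124 FPKM in HFD and 113 to 160.3 FPKM in CD (-0.41 ± 0.11). The 21 tested genes that build the sugars of mucin had 20 members below 0, a median of -0.14 (range -0.25 with HFD+DSS replicate 1 left out to -0.0589 with HFD+DSS replicate 3 left out) and 0 called. Of the 21, 8 (38.1%) were below 0 both without and with DSS, as were 29.6% of all genes.

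Tnfrsf21 (chromosome 17, 43016555 to 43089189), also called death receptor 6, had 14.2, 18.6 and 22.2 FPKM in HFD and 23.3, 27.4 and 30.8 FPKM in CD, without overlap (-0.55 ± 0.11; limma adjusted p = 0.424). Mpzl1, a cell surface glycoprotein, had 11.6 to 16.03 FPKM in HFD and 17.5 to 22.5 FPKM in CD (-0.47 ± 0.10). Baiap2, which couples membrane and actin, had 1.46 to 3.12 FPKM in HFD and 3.19 to 4.62 FPKM in CD (-0.51 ± 0.11). In both, all HFD libraries were below all CD libraries.

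Other genes among the 12 smallest p below 0 overlapped when pooled. Among these were Tbc1d2, a regulator of Rab GTPases (-0.43 ± 0.08), Eif3j2, a translation initiation factor subunit with a near-identical paralog (-0.97 ± 0.20), C1qtnf6, a secreted protein of the C1q family (-0.68 ± 0.15), and Sdc1. Sdc1 encodes syndecan 1, found on epithelium and plasma cells, and had 41.0, 46.9 and 54.4 FPKM in HFD and 50.4, 69.8 and 86.7 FPKM in CD (-0.53 ± 0.13; limma adjusted p = 0.647). Igha, the heavy chain of the IgA that plasma cells make, had 535 to 2247 FPKM in HFD and 977 to 3353 FPKM in CD, with wide overlap (-0.52 ± 0.33, and -0.33 without HFD+DSS replicate 1).

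Goblet cell genes had the lowest median of the lists with more than 4 tested members. Of 15 tested members 0 passed and 13 were below 0. Of the 15, 6 (40%) had an unadjusted limma p under 0.05 and were lower in HFD, as were 427 of all genes (3.01%). The median was -0.47, with -0.26 without DSS and -0.64 with DSS. It ranged from -0.62 with CD replicate 2 left out to -0.385 with CD+DSS replicate 2 left out. Retnlb (chromosome 16, 48816856 to 48818892), a secreted goblet cell protein that kills bacteria, had 92.7, 175 and 366 FPKM in HFD and 326, 429 and 1300.3 FPKM in CD. The ranges overlapped, CD replicate 3 was far above the other CD libraries, and the difference was -1.46 ± 0.36 (SE; limma adjusted p = 0.680) and -1.20 without that library.

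Muc2 (chromosome 7, 141690340 to 141754693), the mucin that forms the mucus gel, had 304, 499.9 and 809 FPKM in HFD and 510.4, 819 and 1269 FPKM in CD (-0.74 ± 0.27; limma adjusted p = 0.932). Its difference was -0.14 without DSS and -1.35 with DSS, where the HFD+DSS libraries, at 401, 304 and 365 FPKM, were below the CD+DSS libraries, at 870.0, 1269 and 671 FPKM. Without DSS the diets overlapped.

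Other goblet genes differed in sign. Agr2, the disulfide isomerase that folds mucin, had 328 to 785 FPKM in HFD and 598 to 1148 FPKM in CD (-0.62 ± 0.22). Spink4, a secreted goblet cell peptide, had 241 to 463 FPKM in HFD and 373 to 1442 FPKM in CD (-0.82 ± 0.30). Spdef, the transcription factor of goblet cell maturation, had a difference of -0.65 ± 0.25, and Sytl2, a protein of secretory vesicles, one of -0.37 ± 0.16, or -0.24 without HFD+DSS replicate 3. The abundant goblet products Tff3 (0.13 ± 0.30) and Zg16 (0.20 ± 0.36) were the members above 0, at -0.0114 and 0.0205 without CD+DSS replicate 3. The summed level of the 15 genes was 3633 to 7121 FPKM in the HFD libraries and 4635 to 11970 FPKM in the CD libraries. Of 18 tested colonocyte genes 16 were below 0 (median -0.22, -0.11 without HFD+DSS replicate 3 and -0.14 without CD+DSS replicate 2), with Guca2a, the gut hormone guanylin, at -0.67 ± 0.27 and Phgr1, an epithelial protein, at -0.64 ± 0.24.

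Among genes of antibacterial defence the median was 0.04, with 10 of 19 above 0 and 9 below (range of the median -0.26 with HFD+DSS replicate 1 left out to 0.13 with HFD replicate 2 left out), and single members differed widely. Ang4 (chromosome 14, 51763878 to 51773590), a bactericidal ribonuclease from a family of close copies, had 2.88, 19.3 and 144 FPKM in HFD and 41.4, 176 and 3194 FPKM in CD. Within each DSS status all HFD libraries lay below all CD libraries, and the pooled ranges overlapped. Its difference of -2.91 ± 0.75 (SE; limma adjusted p = 0.813) was the largest negative one of all genes tested, and -2.34 without CD replicate 3.

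Itln1, a lectin of Paneth and goblet cells, had 0.230 to 9.84 FPKM in HFD and 1.88 to 76.4 FPKM in CD (-1.43 ± 0.56, and -0.89 without CD replicate 3, the highest CD library). Reg3g, a lectin that kills Gram-positive bacteria, had the opposite sign, at 7.86, 157 and 797 FPKM in HFD and 0.794, 40.7 and 589 FPKM in CD (1.32 ± 0.60), as had its close copy Reg3b (1.55 ± 0.87, and 0.94 without CD replicate 1). Both were far higher in libraries with DSS than without in either diet, and the diets overlapped. Tnf and Il1b, the inflammatory cytokines, had differences of -0.08 ± 0.19 and -0.60 ± 0.42, with 7 of 10 tested cytokines and mediators below 0. The difference of Il1b was 0.01 without DSS and -1.22 with DSS, and the pooled one was -0.28 without HFD+DSS replicate 3 and -0.28 without CD+DSS replicate 3. Il6, Lgr5 and Cldn1 were below the level needed for testing.

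The unfolded protein response, by which a cell adjusts to misfolded protein in the endoplasmic reticulum, had small differences that were nearly all below 0. Of 25 tested genes 24 were below 0, the chaperone gene Canx being the exception (0.11 ± 0.14, and 0.0233 without HFD replicate 3), with a median of -0.13, or -0.0836 without CD replicate 3. Of the 25, 21 were below 0 both without and with DSS, as were 4198 of the 14179 genes tested, and 0 passed. Ern2, the stress sensor of goblet cells, had 6.75, 14.1 and 21.2 FPKM in HFD and 15.1, 21.8 and 25.5 FPKM in CD (-0.63 ± 0.22). Chac1, a glutathione-degrading enzyme, had 0.159 to 1.48 FPKM in HFD and 0.155 to 2.76 FPKM in CD (-0.60 ± 0.23), and Herpud1, which helps to clear misfolded protein, had 41.8 to 65.9 FPKM in HFD and 52.2 to 69.0 FPKM in CD (-0.27 ± 0.12).

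Of the 25 tested genes of the unfolded protein response, 0 had diets that did not overlap. Outside the list, Eif2ak3 and Creb3l1 did not overlap between the diets. They were among the 20 of all genes tested (0.141%) with all HFD libraries below all CD libraries. Eif2ak3 (chromosome 6, 70844515 to 70905245), the sensor kinase PERK, had 5.94, 7.97 and 9.76 FPKM in HFD and 10.2, 10.6 and 11.6 FPKM in CD (-0.41 ± 0.10; limma adjusted p = 0.813). Creb3l1 (chromosome 2, 91982328 to 92024502), a transcription factor held in the same membrane, had 27.0, 65.9 and 72.3 FPKM in HFD and 74.1, 83.7 and 101 FPKM in CD (-0.58 ± 0.19; limma adjusted p = 0.894), and -0.38 without HFD+DSS replicate 1.

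Autophagy is the digestion of a cell's own content in lysosomes. Of 38 tested genes of its machinery 0 passed, 32 were below 0 and 6 above, and the differences ran from -0.42 to 0.23 with a median of -0.12, against -0.02 over all genes. Of the 38, 21 (55.3%) were below 0 both without and with DSS, as were 29.6% of all genes. The list median was -0.06 without CD+DSS replicate 2. Atg2a (chromosome 19, 6241668 to 6262335), which moves lipid to the growing membrane, had 4.44, 5.42 and 7.52 FPKM in HFD and 6.19, 7.90 and 8.88 FPKM in CD (-0.42 ± 0.12; limma adjusted p = 0.824). Ulk1, the kinase that starts the process, had 4.71, 6.53 and 8.01 FPKM in HFD and 7.01, 7.56 and 9.24 FPKM in CD (-0.27 ± 0.11; limma adjusted p = 0.995). Wipi1, which binds the early membrane, had 3.73 to 5.91 FPKM in HFD and 4.12 to 9.86 FPKM in CD (-0.29 ± 0.13). All 3 overlapped between the pooled diets.

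The genes most used as readouts differed by less. Map1lc3b, the LC3 protein that coats the membrane, had 17.1, 19.1 and 20.2 FPKM in HFD and 18.4, 18.9 and 25.5 FPKM in CD (-0.10 ± 0.09; 95% interval -0.30 to 0.11). Sqstm1, the cargo receptor p62, had 57.9, 71.3 and 75.4 FPKM in HFD and 65.0, 74.9 and 114 FPKM in CD (-0.20 ± 0.13; 95% interval -0.50 to 0.09). The initiation gene Becn1 (-0.14 ± 0.09), the conjugation genes Atg7 (-0.12 ± 0.09) and Atg5 (0.01 ± 0.15), and Tfeb, the transcription factor of lysosome genes (-0.11 ± 0.12), lay within 2 standard errors of 0. Without CD+DSS replicate 2 the differences were -0.0362 for Map1lc3b and -0.11 for Sqstm1. Of 27 lysosome genes 24 were below 0 (median -0.17, range -0.22 with CD+DSS replicate 3 left out to -0.14 with CD+DSS replicate 2 left out). The cholesterol carrier Npc2 was lowest (-0.30 ± 0.14), and the membrane protein Lamp1 was at -0.07 ± 0.13.

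**Figure D3:**
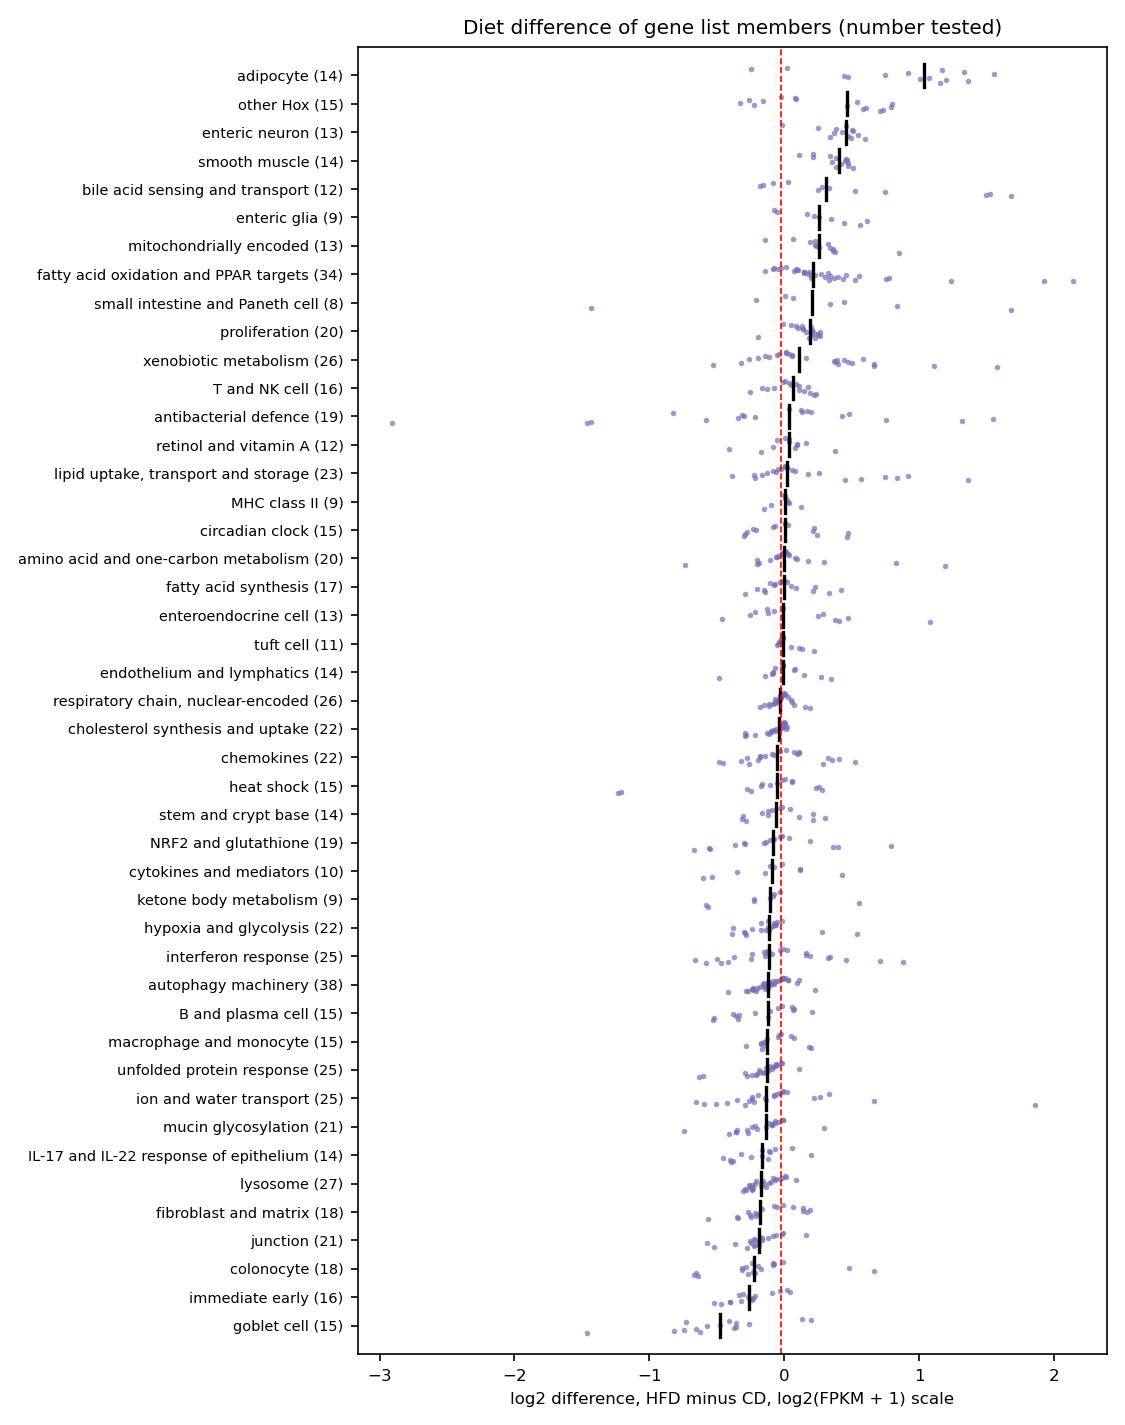
Log2 difference (HFD minus CD, x axis) of every tested member (dots) of each gene list with 8 or more tested members (rows, with the number tested). The black bar is the median of the list and the red dashed line, at -0.02, the median of all genes. Adipocyte genes have a median of 1.04 and goblet cell genes of -0.47, and no dot shown passed the test.

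Muscle, nerve and glia genes of the colon wall had positive medians, whereas those of mesothelium and of fibroblasts were negative. All 14 tested smooth muscle genes were above 0 with a median of 0.41, and 0 passed. That median was -0.02 without DSS and 0.87 with DSS. The summed level had a lowest, median and highest of 1080, 1651 and 4371 FPKM in the HFD libraries and 943, 1599 and 1914 FPKM in the CD libraries. The highest was HFD+DSS replicate 3, and without it the median difference was 0.18. Mylk, the kinase of myosin in contraction, had 35.1, 48.5 and 76.3 FPKM in HFD and 27.4, 36.6 and 48.5 FPKM in CD (0.51 ± 0.19).

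Enteric neuron genes had 12 of 13 tested members above 0, each of them both without and with DSS, and a median of 0.46, which was 0.19 without HFD+DSS replicate 3. Stmn2, a microtubule protein of neurons, had 3.20 to 10.7 FPKM in HFD and 2.16 to 3.64 FPKM in CD (0.60 ± 0.22), and the RNA-binding protein gene Elavl4 had 1.21 to 2.97 FPKM in HFD and 0.623 to 1.63 FPKM in CD (0.50 ± 0.18). Both overlapped between the diets.

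Enteric glia had 7 of 9 tested markers above 0 and a median of 0.26, which was 0.07 without HFD+DSS replicate 3 and 0.41 without HFD+DSS replicate 2. Scn7a (chromosome 2, 66673425 to 66784914), a sodium-sensing channel of glia, had 4.23, 5.48 and 6.72 FPKM in HFD and 2.07, 3.63 and 4.27 FPKM in CD (0.56 ± 0.14; limma adjusted p = 0.813). HFD libraries were above CD libraries within each DSS status, and the pooled ranges overlapped by a narrow margin. The glial transcription factor gene Foxd3 (0.61 ± 0.22) had the same sign.

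The mesothelium, which lines the outer surface of the colon, had 0 of 4 tested markers above 0 and a median of -0.33, with -0.02 without DSS and -0.55 with DSS. Without HFD+DSS replicate 3 that median was -0.21. Fibroblast and matrix genes had 13 of 18 below 0 and a median of -0.18, with a range of -0.36 with CD+DSS replicate 2 left out to -0.0375 with CD+DSS replicate 3 left out. The part of the share of muscle and nerve in the epithelial differences was not tested.

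**Figure D4:**
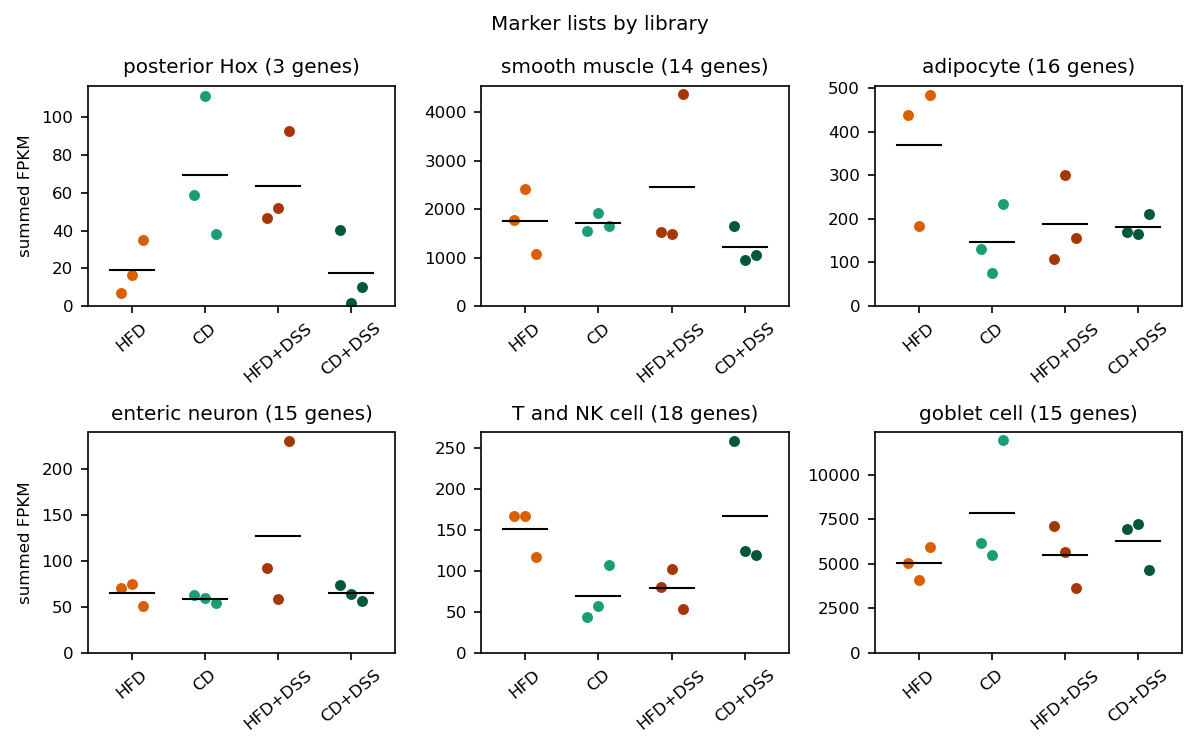
Summed FPKM of 6 marker lists in each library (dots) with the mean of each group (bars), in HFD, CD, HFD+DSS and CD+DSS from left to right. Smooth muscle is highest in HFD+DSS replicate 3 at 4371 FPKM, adipocyte markers are highest in HFD replicate 3 at 485 FPKM, and the T and NK cell list has its highest library in CD+DSS at 259 FPKM.

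Junction and early response genes were mostly below 0. Of 21 tested junction genes 20 were below 0, the median was -0.19, or -0.10 without CD+DSS replicate 2, and 0 passed. That median was -0.02 without DSS and -0.32 with DSS. Jup, the plakoglobin of desmosomes, had 34.0 to 49.2 FPKM in HFD and 41.3 to 70.4 FPKM in CD (-0.27 ± 0.10). The tight junction genes Ocln (-0.22 ± 0.20, and -0.0467 without HFD+DSS replicate 3) and Tjp1 (-0.01 ± 0.16) were closer to 0. Of 16 immediate early genes 14 were below 0 (median -0.26, with 0.02 without DSS and -0.38 with DSS, and -0.17 without HFD+DSS replicate 3). Among them Fos, which pairs with Jun, had 16.4, 38.8 and 48.3 FPKM in HFD and 38.4, 52.2 and 60.4 FPKM in CD (-0.52 ± 0.22, and -0.31 without HFD+DSS replicate 3, the lowest HFD library), and Klf4, a regulator of epithelial differentiation, had a difference of -0.47 ± 0.19. Hypoxia and glycolysis genes had 20 of 22 below 0 (median -0.11, and -0.0314 without CD+DSS replicate 2), among them the glucose transporter gene Slc2a1 (-0.39 ± 0.17, and -0.25 without HFD+DSS replicate 3) and the hexokinase gene Hk1 (-0.28 ± 0.12). Proliferation genes had 18 of 20 above 0 and a median of 0.19, which was 0.04 without CD+DSS replicate 2 and 0.0842 without HFD+DSS replicate 1. Their median was -0.04 without DSS and 0.41 with DSS, and 6 members (30%) were above 0 in both, as were 20.9% of all genes. Mitochondrially encoded genes had 12 of 13 above 0 (median 0.26, range 0.15 with HFD+DSS replicate 1 left out to 0.45 with HFD replicate 1 left out).

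Pooling averages over libraries with and without DSS, and each DSS status can be looked at alone. Without DSS, HFD against CD gave 0 called genes (0%), 588 at an unadjusted limma p under 0.05 and a smallest limma adjusted p of 0.130. With DSS, HFD+DSS against CD+DSS also gave 0 (0%), with 938 genes and a smallest limma adjusted p of 0.505. The interaction gave 0 (0%), with 769 genes and a smallest limma adjusted p of 0.174. In 84 genes (0.592%) the diets did not overlap in either DSS state and differed in the same direction, with HFD higher in 26 (0.183%) and lower in 58 (0.409%). In 71 genes (0.501%) they did not overlap in either state and differed in opposite directions.

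Nkg7 (chromosome 7, 43437073 to 43438249), a granule protein of cytotoxic T and NK cells, had the smallest interaction p under the same limits on named genes. It was at 11.3, 12.0 and 8.28 FPKM in HFD, against 2.43, 2.51 and 6.04 FPKM in CD, both without DSS. With DSS it was at 2.65, 4.43 and 3.55 FPKM in HFD+DSS, against 11.6, 8.51 and 8.29 FPKM in CD+DSS. HFD was above CD in every library without DSS and below it in every library with DSS, so the pooled difference was 0.08 ± 0.42. The interaction, the difference with DSS minus that without, was -2.59 ± 0.39 (SE; limma adjusted p = 0.174). Without CD replicate 3, the CD library nearest to the HFD libraries, its limma adjusted p was 0.00648, and no other alternative called Nkg7. The 16 tested T and NK cell genes had 11 members above 0 and a median of 0.07 pooled, of 0.71 without DSS and of -0.55 with DSS.

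The next 5 genes by interaction p, under the same limits, had the opposite sign. Of these, 3 belong to the secreted phospholipase A2 family, enzymes that release fatty acids from membranes, and Pla2g2a is annotated as a polymorphic pseudogene. Pla2g2a had 1.15, 1.65 and 2.60 FPKM in HFD and 7.37, 8.30 and 9.63 FPKM in CD without DSS, but 45.9, 12.0 and 19.1 FPKM in HFD+DSS and 10.1, 2.79 and 5.20 FPKM in CD+DSS. HFD was below CD in every library without DSS and above it in every library with DSS. Its interaction was 3.63 ± 0.64 (SE; limma adjusted p = 0.277), and those of Pla2g2f and Pla2g5 were 2.84 ± 0.43 and 1.63 ± 0.34. Slc1a1, a glutamate transporter gene, had an interaction of 1.86 ± 0.30 (limma adjusted p = 0.183), and St3gal6, a sialyltransferase gene, one of 1.84 ± 0.35 (limma adjusted p = 0.407).

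Hoxb13 (chromosome 11, 96194316 to 96197447), the most posterior gene of its cluster, crossed in the same way. It was at 0.711, 0 and 19.3 FPKM in HFD and 32.9, 61.3 and 28.8 FPKM in CD without DSS. With DSS it was at 27.4, 37.8 and 62.8 FPKM in HFD+DSS and 22.6, 0.0336 and 0.122 FPKM in CD+DSS, where CD+DSS replicate 1 stood apart from the other CD+DSS libraries. Its pooled difference was 0.08 ± 1.35, with -3.61 without DSS and 3.78 with DSS. Hoxa13 and Hoxd13 had pooled differences of -0.15 ± 0.47 and 0.78 ± 0.94.

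With the posterior Hox level as a covariate, an alternative added after the values were seen, the interactions of these 6 genes were nearer to 0. They were -2.24 for Nkg7, 2.39 for Pla2g2a, 1.601 for Pla2g2f, 0.75 for Pla2g5, 1.09 for Slc1a1 and 1.06 for St3gal6. For Muc2 the interaction was -0.65 with the covariate and -1.21 without it. With 3 libraries a group, a difference in the position sampled along the colon and an interaction of diet and DSS cannot be told apart.

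**Figure D5:**
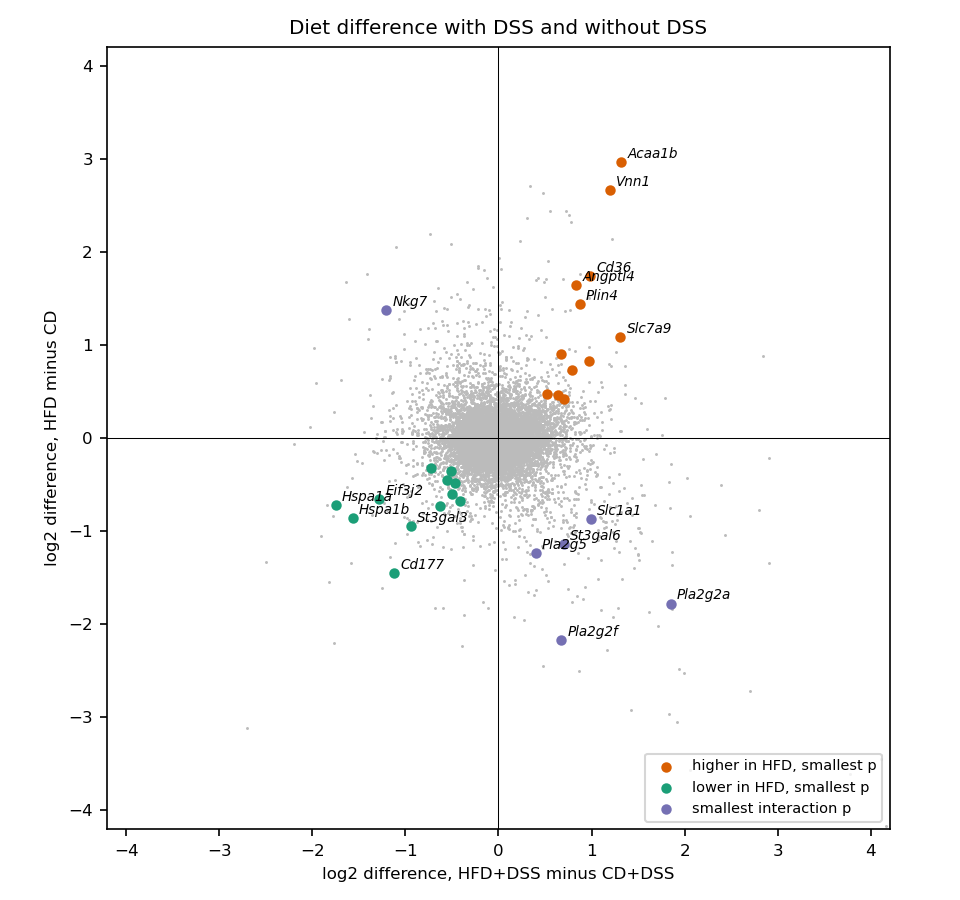
Log2 difference of each gene between the diets with DSS (HFD+DSS minus CD+DSS, x axis) and without DSS (HFD minus CD, y axis), with the genes of smallest diet p in orange and green and of smallest interaction p in purple. Acaa1b and Vnn1 lie above 0 on both axes and Cd177 below 0 on both, Nkg7 and Pla2g2a lie in opposite corners, and 1 gene falls outside the axes.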

How the data were processed

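RNA of colon was measured by RNA-seq in 12 libraries. Per the labels' protocols, extraction used RNeasy mini plus and library preparation a SMARTER mRNA-Seq kit. The authors deposited 1 table of FPKM per gene ID, and mm10 is the build per the submitters' processing notes. For the aligner, the counter, the annotation, strand and any filters, details were not given in the sources used here. Symbols and coordinates came from GENCODE M21 (mm10), which named 54495 of 54532 IDs, and 23672 genes were at 0 in all libraries. The deposited FPKM carry a scaling to an equal median ratio, which was 1.01 in every library. Steps of low values gave back whole fragments for 97.0% to 97.2% of values within 0.1 fragment.

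Differences were fitted with limma 3.58.1 in R 4.3.3 (lmFit, eBayes with trend) on log2(FPKM + 1) with terms for DSS and diet, Benjamini-Hochberg adjusted over 14179 genes, and called at an adjusted p under 0.05. The script was tested on simulated data. No 2 libraries agreed within sampling noise. Same-numbered samples mostly did not deviate together (3 of 18 correlations above 0.1), a check that cannot exclude a pairing. The labels do not say that the numbers pair samples, so the main fit had no block for them.

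The 54 gene lists, with 827 of 950 entries tested, and the comparison itself were chosen with earlier results of these data known. The genes named are the 12 with the smallest p in each direction (predicted genes and receptor segments left out, a mean of 2 FPKM or more), up to 3 per list, fixed pathway genes and the 6 smallest interaction p; some of them are not reported here. Eif2ak3, Creb3l1, Klhl13, Arxes2, Acot1, Acot2, Spdef, Sytl2, Tff3, Zg16, S100a8, S100a9, Hspa8, Canx and Reg3b were added after their values were seen. Alternatives changed the pseudocount, filter, covariates, normalization and test, or left out 1 library.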

Additional observations from a re-analysis of the deposited data

Results flagged for a closer look

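In 226 groups of 6 libraries of 1 diet, 17 had a library apart from the others, with a gap to its nearest neighbour that took up most of the range (above Dixon's critical value). Chance flags about 1 in 20 groups. No explanation was tested.

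Among HFD libraries, HFD replicate 2 was low for Angptl4 at 2.67 FPKM. HFD+DSS replicate 1 was low for the membrane and actin gene Baiap2 (1.46 FPKM), for the glutathione transferase Gstm1 (34.9 FPKM) and for Creb3l1 (27.0 FPKM), and high for Herpud1 (65.9 FPKM). HFD+DSS replicate 3, the library with the most smooth muscle, was low for Fos at 16.4 FPKM.

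Among CD libraries, CD replicate 2 was high for Atg7 (4.90 FPKM) and Hoxd13 (27.2 FPKM) and low for the goblet cell factor Spdef (16.4 FPKM). CD replicate 3 was high for the antibacterial genes Retnlb (1300.3 FPKM) and Itln1 (76.4 FPKM) and low for Eif3j2 (1.66 FPKM). CD+DSS replicate 1 was high for Hk1 (36.6 FPKM). CD+DSS replicate 2 was high for Pdk4 (22.2 FPKM) and Acot2 (4.72 FPKM), both targets of PPAR receptors. CD+DSS replicate 3 was high for the glial gene Foxd3 (0.808 FPKM) and the neutrophil gene S100a8 (8.50 FPKM).

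For 5 of the genes named in the text, the 3 libraries of each diet did not overlap without DSS and did not overlap in the opposite direction with DSS. Of all 14179 genes tested, 71 (0.501%) did so. Nkg7, Slc1a1, Pla2g2a and St3gal6 had been named for their small interaction p. The diet difference with DSS minus that without was 7.39 ± 1.73 for Hoxb13, -2.59 ± 0.39 for Nkg7, 1.86 ± 0.30 for Slc1a1, 3.63 ± 0.64 for Pla2g2a and 1.84 ± 0.35 for St3gal6 (SE, log2 scale). None had a limma adjusted p under 0.05 for that difference, with 0.560 for Hoxb13 and 0.174 for Nkg7.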

How the results depend on the processing

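Over 21 alternatives per result the count of genes called for diet was 0 each time, with 495 to 851 genes at an unadjusted limma p under 0.05 when 1 library was left out. Unfiltered data gave 1391 such genes of 30860 tested, and voom gave 627. In 2348 gene settings 42 had the other sign, all in 9 genes with differences smaller than their error, and 0 passed the test. Leaving out 1 library gave ranges of -0.0737 to 0.12 for Atg5, -0.24 to 0.0485 for Tnf, -0.12 to 0.12 for Tjp1, -0.67 to 0.87 for Hoxb13, -0.14 to 0.29 for Nkg7, -0.11 to 0.24 for Slc1a1, -0.39 to 0.31 for Pla2g2a, -0.0114 to 0.34 for Tff3 and -0.59 to 0.0382 for Hoxa13. Quantile normalization gave Tjp1 0.0447 and voom 0.0194. Voom gave Hoxb13 -0.0823, a pseudocount of 0.1 gave Pla2g2a -0.10, and the posterior Hox covariate gave Hoxb13 -0.30, Slc1a1 -0.0158 and Pla2g2a -0.11. The cause was not tested.

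Interaction calls were 1 without a filter (5033424D13Rik) and 0 to 3 with 1 library left out, the 3 being Apol10c-ps, Nkg7 and 9030619P08Rik without CD replicate 3, and Mptx1 being called without CD+DSS replicate 1. Calls without DSS ranged from 0 to 2, with Apol10c-ps and 9030619P08Rik again without CD replicate 3 and Trgj1 without CD+DSS replicate 3. Calls with DSS ranged from 0 to 1, Mptx1 without CD+DSS replicate 1. With the replicate number as a block 0 genes were called for diet, 581 had an unadjusted limma p under 0.05 and the smallest limma adjusted p was 0.362. Of 1071 settings of 51 list medians, 111 had the other sign. Depth limits genes of few FPKM, which rest on few fragments.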

Other observations

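Some gene groups outside the comparisons above also had members at an unadjusted limma p under 0.05, and none passed. Hox genes other than the 3 most posterior had 10 of 15 tested members above 0 and a median of 0.47, with 0.72 without DSS and -0.13 with DSS. The pooled median was 0.28 without CD replicate 1. It was 0.08 over the members that passed a filter of FPKM 5 or more. Hoxd9 had 1.27, 2.00 and 5.15 FPKM as lowest, median and highest in HFD and 0.197, 0.860 and 2.39 FPKM in CD (0.71 ± 0.29), and its neighbour Hoxd10 had 0.749 to 6.06 FPKM in HFD and 0.0330 to 2.00 FPKM in CD (0.73 ± 0.34). These genes pattern the gut along its length. Clock genes had 8 of 15 above 0 and a median of 0.00 (range -0.0782 with CD replicate 3 left out to 0.0324 with CD+DSS replicate 3 left out). The repressor gene Nr1d2 had a difference of 0.46 ± 0.19 and Cry1, a repressor of another loop of the clock, one of -0.30 ± 0.13. The hour of sampling does not appear in the labels.

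Immune lists had no common direction, and each range is that of the median with 1 library left out. Of 9 tested MHC class II genes, which present antigen to T cells, 7 were above 0, with a median of 0.00 (range -0.14 with CD replicate 1 left out to 0.17 with CD+DSS replicate 1 left out). The T and NK cell list had 11 of 16 above 0 (range -0.13 with CD replicate 1 left out to 0.25 with CD+DSS replicate 1 left out), and eosinophil and mast cell genes had 3 of 6 (median -0.02, range -0.20 with HFD+DSS replicate 3 left out to 0.0730 with HFD+DSS replicate 1 left out). Chemokines had 10 of 22 above 0 (median -0.05, range -0.17 with HFD+DSS replicate 1 left out to 0.14 with CD+DSS replicate 3 left out), with Ccl25, which draws lymphocytes to the gut, at 0.29 ± 0.11 and Cxcl14, a chemokine of epithelium, at -0.45 ± 0.19.

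B and plasma cell genes had 11 of 15 below 0 (median -0.12, range -0.29 with HFD+DSS replicate 1 left out to -0.0836 with CD replicate 3 left out), Tnfrsf17, the survival receptor of plasma cells, being at -0.34 ± 0.15. Interferon response genes had 16 of 25 below 0 (median -0.11), but that median ran from -0.34 with CD+DSS replicate 3 left out to 0.17 with HFD+DSS replicate 2 left out. Macrophage genes had 11 of 15 below 0 (median -0.13), with a range of -0.23 with CD+DSS replicate 2 left out to 0.00517 with CD+DSS replicate 1 left out. Genes of the IL-17 and IL-22 response had 12 of 14 below 0 (median -0.16, range -0.28 with HFD+DSS replicate 1 left out to -0.11 with HFD replicate 2 left out).

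Lists of other epithelial cells and functions were mixed. Tuft cell genes had 4 of 11 above 0 (median -0.01), enteroendocrine genes 6 of 13 (median -0.01) and stem and crypt base genes 5 of 14 (median -0.06), and each of the 3 medians took both signs with 1 library left out. Genes of ion and water transport had 19 of 25 below 0 (median -0.14, range -0.19 with CD+DSS replicate 3 left out to -0.0408 with HFD+DSS replicate 3 left out). Small intestine and Paneth cell genes had 6 of 8 above 0 (median 0.20, range 0.0738 with HFD replicate 3 left out to 0.37 with CD+DSS replicate 2 left out). That median was 0.87 without DSS and -0.32 with DSS.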
